A study of Homo sapiens with 6 samples.

Results

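Transcripts of the cadherins, the protocadherins and the integrins were examined in SH-SY5Y cells after UCB treatment for 4 h. Members were chosen by symbol, as every probe set whose only gene symbol in the platform annotation started with CDH and a number, with PCDH, or with ITGA or ITGB, leaving out the integrin-binding proteins whose symbols start the same way and a Y-linked protocadherin. This gave 69 genes of 11963 with a symbol of their own, and 112 probe sets of 22215. There were 18 cadherin genes with 27 probe sets, 20 clustered protocadherin genes with 23, 7 non-clustered protocadherin genes with 12, 16 integrin alpha genes with 24 and 8 integrin beta genes with 26. The symbol rule also took in ITGBL1, a secreted protein with integrin-like repeats, and PCDHB17P, a pseudogene of the protocadherin beta cluster.

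UCB is the product of heme breakdown that injures neurons when it reaches the brain, and Bf is its fraction not bound to albumin. In 3 flasks the serum-containing medium carried Bf 140 nM, and in 3 flasks it carried DMSO 0.6%, the solvent in which the UCB had been dissolved. Both groups therefore contained the solvent, and both were collected at 4 h. SH-SY5Y is an established human neuroblastoma line, so the arrays describe cultures of a single line and no other neuron or glial cell. RNA of each flask was hybridised to an Affymetrix array, and the comparison addresses whether an early response to UCB reached these genes. The flasks carried replicate numbers 1 to 3, and the sample descriptions carry the numbers 3, 5 and 6 beside them, the same in both groups. The labels do not say what these numbers mark.

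Cadherins join cells to each other through calcium-dependent binding of their extracellular repeats, and their cytoplasmic tails hold the catenins, which tie the junction to actin. Clustered protocadherins are encoded in neighbouring arrays of variable exons, each with a promoter of its own, and neurons use different combinations of them to tell their own processes from those of other cells. Integrins are pairs of an alpha and a beta chain that bind matrix proteins such as fibronectin, laminin and collagen outside the cell, and talin and kindlin inside it. In neural crest cells, from which neuroblastoma derives, N-cadherin and beta 1 integrins carry adhesion during migration.

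Values below are normalised levels on the generalised log2 scale of the deposited table, on which differences of dim probe sets are understated, and differences are Bf 140 nM minus DMSO 0.6%. The lowest array median was 7.94 in Bf 140 nM and 7.85 in DMSO 0.6%, in replicate 3 of each group. Of the markers of noradrenergic neuroblasts, 11 of 13 measured genes were above the background-like level described next on all 6 arrays. Tyrosine hydroxylase, TH, was above it on no array, and the transcription factor gene HAND2 on 2 arrays. Epithelial (0 of 5), endothelial (0 of 3) and leukocyte (0 of 4) markers were above it nowhere, whereas 8 of 11 markers of mesenchymal or Schwann-like cells were above it. Of these markers, 1 epithelial, 1 endothelial and 3 leukocyte ones are themselves members of the set examined. ITGAE and ITGB7, integrin chains known from lymphocytes or leukocytes, are not in the marker list and were above it on all 6 arrays. Replicate 3 was the highest array of each group in the 3' minus 5' difference of beta-actin, which grows as labelled transcripts are cut short at their 5' side. It was 0.239, 0.488 and 0.885 in Bf 140 nM replicates 1, 2 and 3, against 0.105, 0.316 and 2.21 in DMSO 0.6%. Between the treatment groups the exact two-sided permutation p was 0.9 (n = 3 each, with 0.1 the smallest p possible). Replicate 3 was not tested against the other replicates. GAPDH gave 0.201 to 0.377 in Bf 140 nM and 0.103 to 1.30 in DMSO 0.6%, with DMSO replicate 3 the highest.

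Most member probe sets did not exceed a background-like level. Because the values carry no detection calls, the 95th percentile of 107 probe sets of 72 genes restricted to other tissues was taken on each array as a background-like level, which lay between 7.82 and 8.03. Of the 112 member probe sets, 13 (11.6%) exceeded it on all 6 arrays, 11 exceeded it on 1 to 5 arrays and 88 on none. Over all probe sets tested, 44.3% exceeded it on all 6 arrays. The 13 probe sets belonged to 10 genes, the cadherins CDH2 and CDH11, the protocadherins PCDH9 and PCDH17, the integrin beta chains ITGB1, ITGB5 and ITGB7, and the integrin alpha chains ITGAV, ITGA2 and ITGAE. No clustered protocadherin exceeded it on all arrays with a probe set of its own. ITGB7 and PCDH17 passed by the smallest margins, 0.022 and 0.051 on their dimmest array, whereas PCDH12 (above on 5 arrays, short by 0.024) and PCDHB12 (above on 3 arrays, short by 0.137) were the nearest below. Probes differ in how strongly they bind, so a level above this line is a description of a probe set, levels of different genes were not set against each other, and a probe set below the line can still belong to a transcribed gene. In a culture, fewer cells with a transcript and less transcript per cell cannot be told apart.

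**Figure D1:**
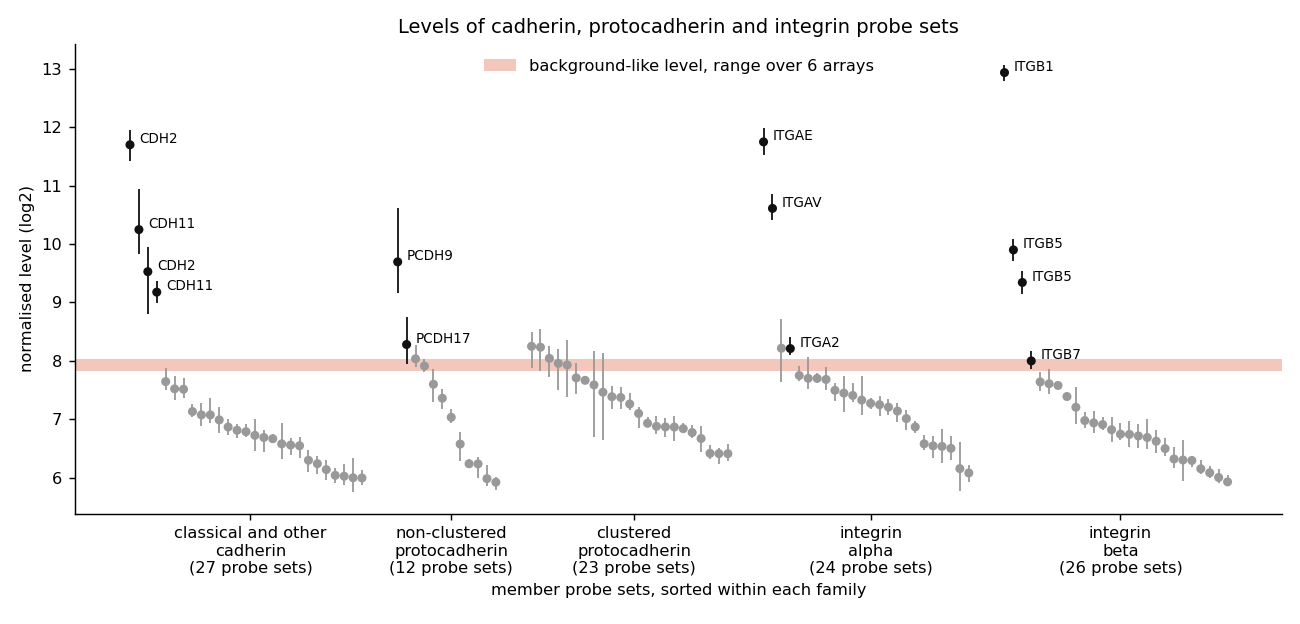
Normalised level (log2) of the 112 member probe sets, sorted within each family; points are means over the 6 arrays, lines run from the lowest to the highest array, and the band is the range of the background-like level over the arrays. The 13 black, named probe sets exceeded the level on all 6 arrays; the 23 clustered protocadherin probe sets were all grey.

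CDH2, or N-cadherin, the classical cadherin of neural cells, was above background with both its probe sets (chromosome 18). Probe set 203440_at measured 11.43, 11.67 and 11.89 in Bf 140 nM replicates 1, 2 and 3, against 11.45, 11.83 and 11.95 in DMSO 0.6%. The groups overlapped, and replicate 1 was the lowest array in each. In the limma fit without a replicate block its difference was -0.08 (SE 0.17, 95% interval -0.48 to 0.31), or 0.94-fold, with adjusted p = 0.99999. The genes below are given by the same fit unless a block is named, and the spread between replicate numbers enters its SE. The other CDH2 probe set, 203441_s_at, measured 9.95, 9.69 and 9.21 in Bf 140 nM, against 9.76, 9.75 and 8.81 in DMSO 0.6%. Here replicate 3 was the lowest array in each group, so the 2 probe sets of the gene ordered the replicates differently in both groups. The difference of 203441_s_at was 0.18 (SE 0.30, 95% interval -0.51 to 0.87).

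CDH11, or OB-cadherin, a type II cadherin of mesenchymal and neural crest cells (chromosome 16), was likewise above background with both probe sets. The array values of 207173_x_at were 9.82, 10.00 and 10.94 in Bf 140 nM and 9.85, 10.27 and 10.61 in DMSO 0.6%. Replicate 3 was the highest array of each group, and the means were 10.25 ± 0.60 in Bf 140 nM and 10.24 ± 0.38 in DMSO 0.6% (SD, n = 3 each). Probe set 207172_s_at measured 9.01, 9.30 and 9.37 in Bf 140 nM, against 9.06, 9.34 and 8.99 in DMSO 0.6%, and gave a difference of 0.10 (SE 0.14). Replicate 3 of DMSO 0.6% was its lowest array, whereas replicate 3 of Bf 140 nM was its highest.

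The cadherins that mark epithelial and endothelial cells stayed at background-like levels. CDH1, the E-cadherin of epithelia, averaged 6.64 ± 0.26 in Bf 140 nM and 6.51 ± 0.17 in DMSO 0.6% (SD, n = 3 each). CDH5, the VE-cadherin of endothelium, averaged 6.51 ± 0.14 in Bf 140 nM and 6.60 ± 0.07 in DMSO 0.6%. Of the 18 cadherin genes, 16 were above the level on no array, including the other type II cadherins CDH6 to CDH10, CDH12, CDH18, CDH19, CDH20 and CDH22. Among the 27 cadherin probe sets, 14 differences lay above 0 and 13 below, with a median of 0.0075 and a range of -0.18 to 0.20.

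The non-clustered protocadherins PCDH9 and PCDH17, both on chromosome 13 and both delta protocadherins of developing neurons, had probe sets above background. PCDH9 (219737_s_at) measured 9.17, 9.40 and 10.62 in Bf 140 nM, against 9.18, 9.52 and 10.29 in DMSO 0.6%. Replicate 3 lay above the mean of replicates 1 and 2 by 1.33 in Bf 140 nM and by 0.94 in DMSO 0.6%. The difference between groups was 0.06 (SE 0.42, 95% interval -0.92 to 1.05), the widest interval of the genes above background. Its second probe set, 219738_s_at, was above the level on no array. PCDH17 (205656_at) measured 7.99, 8.34 and 8.75 in Bf 140 nM, against 7.95, 8.05 and 8.61 in DMSO 0.6%. Every Bf 140 nM array was above the DMSO 0.6% array of its number, by 0.033, 0.287 and 0.139, while the groups overlapped. The difference was 0.15 (SE 0.24, 95% interval -0.40 to 0.71) in the fit without a replicate block. The replicate numbers differed in this probe set (limma F test, adjusted p = 0.0282), and that spread enters the SE. PCDH1, a protocadherin known from airway epithelium that was above the level on 3 arrays, and PCDH12, the vascular endothelial protocadherin, lay close to it. PCDH7, PCDH8 and PCDH11X were above it on no array.

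The 20 clustered protocadherin genes, all on chromosome 5, had a probe set above the level on some arrays but not all in 7 cases and on none in 13. The genes above on some arrays were PCDHB3, PCDHB6, PCDHB11, PCDHB12 and PCDHB13 of the beta cluster and PCDHGA3 and PCDHGC3 of the gamma cluster. The beta cluster probe sets among them end in _x_at, which marks probes that can match other transcripts. The beta genes are close copies of each other, so their signals may be shared. That of PCDHGA3 ends in _x_at as well, so its signal may also be shared. PCDHGC3 is listed with PCDHGA3 on a probe set of 7 symbols left out of the members. Whether its own probe set shares signal was not tested. PCDHB3 measured 8.52, 8.29 and 7.82 in Bf 140 nM, against 8.54, 8.39 and 7.84 in DMSO 0.6%. PCDHB13 measured 8.13, 8.03 and 7.55 in Bf 140 nM, against 8.36, 8.11 and 7.38 in DMSO 0.6%. In both genes replicate 3 was the lowest array of each group. PCDHGA3 (216352_x_at) measured 7.52, 8.13 and 6.64 in Bf 140 nM, against 7.80, 7.95 and 6.73 in DMSO 0.6%. PCDHGC3 (214564_s_at) measured 7.69, 8.12 and 6.98 in Bf 140 nM, against 7.87, 8.16 and 6.70 in DMSO 0.6%. In these gamma cluster genes, too, replicate 3 was the lowest and replicate 2 the highest array in each group, so both groups ordered the replicate numbers alike.

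Promoters of clustered protocadherins are known to share a short conserved element with CGCT at its core. RefSeq promoters (250 bases before to 50 after the start, GRCh38.p14) matched 49 of the 69 member genes and 17 of the 20 clustered ones. CGCTG, a motif chosen after these sequences had been read, lay within the 100 bases before the start on the gene's strand in 14 of 17 clustered members (82.4%), and in 12.4% of 35116 promoters. On both strands of the whole 300 bases it was found in 15 of 17 (88.2%) and in 48.0% of all promoters. It is shown for 2 beta and 2 gamma cluster members with a probe set that differed between the replicate numbers. Their adjusted p was at most 0.0239 (limma F test). CGCTG is also shown for PCDHA10 of the alpha cluster, which did not pass that test (adjusted p = 0.758). The signal of the beta and gamma probe sets may be shared within a cluster, so their levels were not tied to the promoters shown. The windows are 60 bases of the plus strand, the strand of these genes, with CGCTG in capitals, and lie at chr5:141100379-141100438 (PCDHB3), chr5:141213851-141213910 (PCDHB13), chr5:141343753-141343812 (PCDHGA3), chr5:141475885-141475944 (PCDHGC3) and chr5:140855827-140855886 (PCDHA10).
PCDHB3: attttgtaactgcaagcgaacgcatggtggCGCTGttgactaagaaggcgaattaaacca
PCDHB13: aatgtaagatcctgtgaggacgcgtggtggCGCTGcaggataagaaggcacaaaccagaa
PCDHGA3: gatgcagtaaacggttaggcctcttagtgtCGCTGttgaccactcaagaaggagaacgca
PCDHGC3: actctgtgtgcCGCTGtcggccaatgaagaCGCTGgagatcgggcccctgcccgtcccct
PCDHA10: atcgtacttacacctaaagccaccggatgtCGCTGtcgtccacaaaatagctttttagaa
The motif, or the copy nearer the start in PCDHGC3, began 64 bases before the start in PCDHB3, 38 in PCDHB13, 46 in PCDHGA3, 51 in PCDHGC3 and 40 in PCDHA10. A match of these letters is a description and was not tied to any factor. For all members with a RefSeq promoter, the number of CpG dinucleotides in the 300 bases had a median of 20 (4 to 39) in the 9 matched genes above background and of 8.5 (2 to 31) in the 40 others, against 14 over all promoters. The 40 others hold all 17 clustered members with a promoter and the 9 hold none, so these sets differ in family as well as in level.

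ITGB1, the beta 1 chain that pairs with most alpha chains of matrix receptors (chromosome 10), was above background with 1 of its 5 probe sets. Probe set 211945_s_at measured 12.87, 12.80 and 13.00 in Bf 140 nM, against 12.84, 13.06 and 13.06 in DMSO 0.6%. The groups overlapped, and its difference was -0.10 (SE 0.11, 95% interval -0.36 to 0.16), or 0.93-fold (0.78 to 1.12). The other 4 probe sets of ITGB1 were above the level on no array. ITGB5, which pairs with the alpha V chain to bind vitronectin (chromosome 3), was above with 2 of its 4 probe sets. Probe set 201125_s_at measured 10.04, 9.81 and 9.81 in Bf 140 nM, against 10.09, 9.96 and 9.71 in DMSO 0.6%. Probe set 214020_x_at measured 9.31, 9.51 and 9.30 in Bf 140 nM, against 9.25, 9.54 and 9.14 in DMSO 0.6%. The groups overlapped in both, and the differences had opposite signs, -0.03 (SE 0.13) and 0.06 (SE 0.13). ITGB7, a leukocyte chain that pairs with the alpha 4 and alpha E chains (chromosome 12), measured 7.92, 8.16 and 7.87 in Bf 140 nM, against 8.11, 7.85 and 8.08 in DMSO 0.6%. It passed the level by the smallest margin of any member, and its gene overlaps ZNF740 in the annotation. ITGB2, the beta chain of leukocytes, averaged 6.93 ± 0.15 in Bf 140 nM and 7.02 ± 0.09 in DMSO 0.6%, and ITGB3, the beta chain of platelets, averaged 7.57 ± 0.02 in Bf 140 nM and 7.59 ± 0.02 in DMSO 0.6% (SD, n = 3 each). ITGB2, ITGB3, ITGB4, ITGB8 and ITGBL1 were above the level on no array.

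ITGAV, the alpha V chain that binds RGD motifs in vitronectin and fibronectin (chromosome 2), measured 10.53, 10.42 and 10.86 in Bf 140 nM, against 10.58, 10.80 and 10.48 in DMSO 0.6%. Its pair differences ran from -0.38 in replicate 2 to 0.38 in replicate 3 and its difference was -0.01 (SE 0.15, 95% interval -0.36 to 0.33). ITGA2, a chain of the collagen and laminin receptor alpha 2 beta 1 (chromosome 5), measured 8.11, 8.40 and 8.16 in Bf 140 nM, against 8.15, 8.33 and 8.10 in DMSO 0.6%, so that replicate 2 was the highest array of each group. ITGAE, the alpha E chain known from intraepithelial lymphocytes, where it binds E-cadherin (chromosome 17), measured 11.64, 11.60 and 11.99 in Bf 140 nM, against 11.53, 11.80 and 11.95 in DMSO 0.6%. The gene HASPIN lies within ITGAE in the annotation and P2RX5 overlaps it, and whether the probe set reads either of them was not tested. Its partner chain ITGB7 stood at the level and its ligand CDH1 was below it.

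The remaining integrin alpha chains lay at or below the level. ITGA1, a collagen receptor chain, was above it on 4 arrays and ITGA9 on 1 array, and the other 11 genes on none. ITGA1 measured 8.49, 7.98 and 8.08 in Bf 140 nM, against 8.39, 8.72 and 7.63 in DMSO 0.6%, and the gene PELO lies within it. ITGAM, the alpha chain of myeloid cells, averaged 7.24 ± 0.11 in Bf 140 nM and 7.30 ± 0.07 in DMSO 0.6%, and ITGA2B, the alpha chain of platelets, averaged 7.42 ± 0.17 in Bf 140 nM and 7.39 ± 0.05 in DMSO 0.6% (SD, n = 3 each). The laminin receptor chains ITGA3, ITGA6 and ITGA7 and the fibronectin receptor chains ITGA4 and ITGA5 were above the level on no array.

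**Figure D2:**
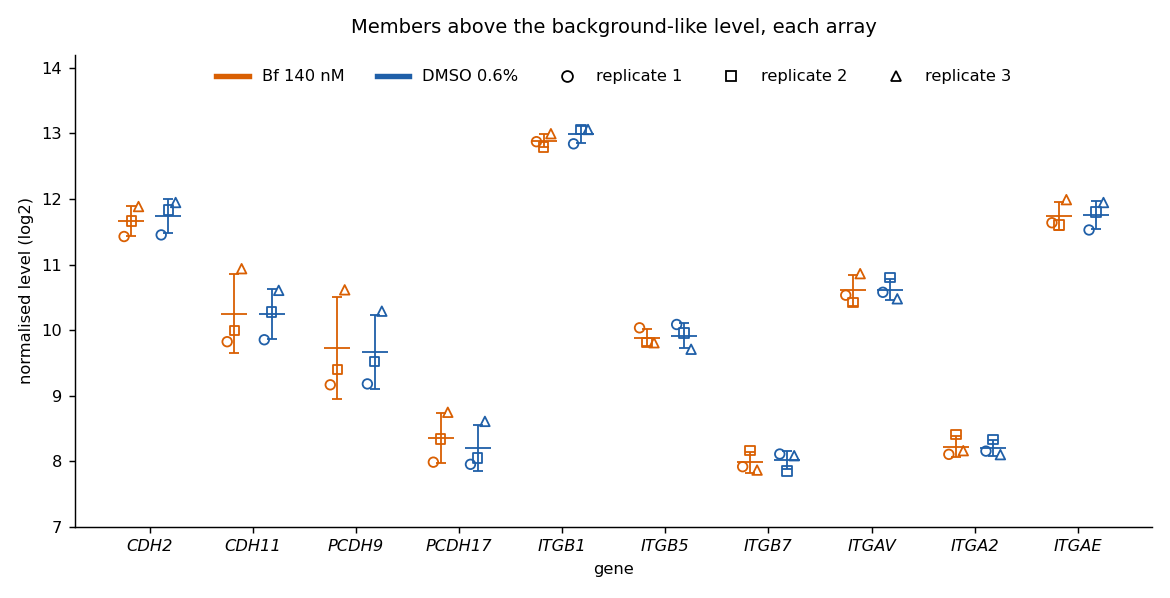
Normalised level (log2) of the 10 member genes above the background-like level, each by the brightest of its probe sets; symbols are single arrays, shaped by replicate number, the horizontal line is the group mean and the bars are 1 SD (n = 3 per group). Bf 140 nM and DMSO 0.6% overlapped in every gene, and in CDH2, CDH11, PCDH9, PCDH17 and ITGAE replicate 3 was the highest array of both groups.

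No cadherin, protocadherin or integrin probe set passed the test between Bf 140 nM and DMSO 0.6%. Of the 112 member probe sets, 0 passed an adjusted p of 0.10 by limma, against 0% of the 22215 probe sets tested, and 0 passed an unadjusted p of 0.05, against 17 probe sets, or 0.0765%. With the replicate number as a block, 0 members passed the unadjusted p of 0.05, against 0.414% of all probe sets. Both shares over all probe sets lie far below the share of 0.05 that this threshold nominally passes when nothing differs. At such shares a count of 0 among 112 probe sets is near the background and says little about the members. The lowest unadjusted p of any member was 0.088, for CDH20, a type II cadherin at background-like levels and the member with the most positive difference (0.20, SE 0.10). The most negative difference was that of PCDHGA9, also at background-like levels, which averaged 7.60 ± 0.15 in Bf 140 nM and 7.81 ± 0.17 in DMSO 0.6% (difference -0.21, SE 0.13). In the fit without a block, the 95% interval of the difference stayed within a 2-fold change for 109 of the 112 members, beside 97.8% of all probe sets, and within 1.5-fold for 103, beside 85.7%. Of the 13 above background, 12 stayed within 2-fold and 9 within 1.5-fold (69.2%). Over all probe sets above the level the shares were 97.1% and 77.9%. Most of the other members were dim probe sets, whose differences this scale understates. The 3 whose interval reached past 2-fold were probe sets of PCDH9, PCDHGC3 and PCDHGA3, in which the replicate numbers lay far apart. With the replicate number as a block, all 112 intervals stayed within 1.5-fold, beside 97.5% of all probe sets, and that of PCDH9 was -0.21 to 0.34. A p that misses the threshold does not show that the levels were equal.

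Differences of the members lay on both sides of 0. Their median difference was -0.0035, with 53 of 112 above 0, whereas the median over all probe sets tested was 0.031, with 63.2% above 0. For the 13 probe sets above background the median was 0.0075, with 7 above 0, beside 0.050 over all 9843 probe sets above it. By replicate number, the medians of these 13 were -0.025, -0.119 and 0.139 for pairs 1, 2 and 3, so that the pairs disagreed in sign. Over all probe sets above the level the pair medians were 0.060, -0.132 and 0.203. Of the 13, 2 had pair differences of the same sign in all 3 pairs (15.4%), beside 10.3% of all probe sets above the level. These were PCDH17, with Bf 140 nM above DMSO 0.6% in each pair, and the CDH2 probe set 203440_at, with Bf 140 nM below it in each pair.

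**Figure D3:**
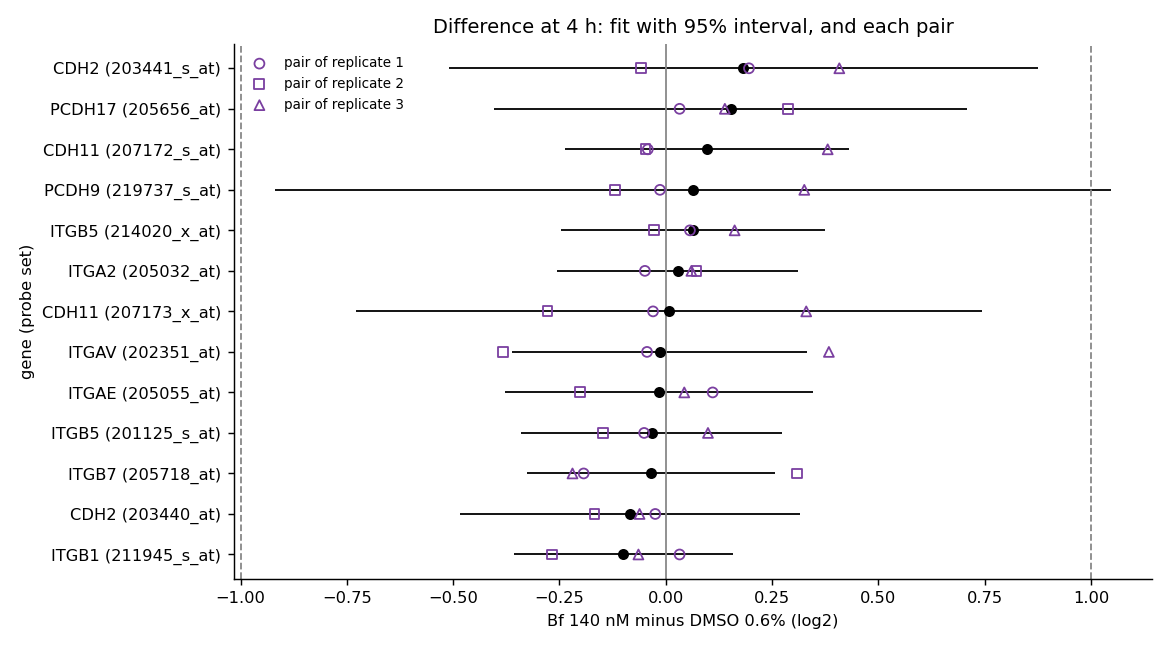
Difference Bf 140 nM minus DMSO 0.6% (log2) of the 13 member probe sets above the background-like level; black points are the differences fitted without a replicate block, with their 95% intervals, open symbols are the differences of same-numbered arrays, and dashed lines mark a 2-fold change. Every interval includes 0, and only that of PCDH9 reaches past a 2-fold change.

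All 3 Bf 140 nM arrays lay on one side of all 3 DMSO 0.6% arrays for 5 member probe sets (4.46%), 3 higher and 2 lower, against 2.66% of all probe sets, 1.68% higher and 0.981% lower. They are named here after their values were seen, except CDH20. PCDH1 (203918_at) measured 7.95, 8.02 and 7.96 in Bf 140 nM, against 7.80, 7.91 and 7.82 in DMSO 0.6% (difference 0.13, SE 0.09). CDH20 measured 6.58, 6.70 and 6.67 in Bf 140 nM, against 6.42, 6.33 and 6.58 in DMSO 0.6%. The others were ITGA2B (216966_at), higher by 0.11 in Bf 140 nM, and CDH9 and ITGBL1 (205422_s_at), with differences of -0.18 and -0.10. None of the 5 exceeded the background-like level on all arrays, and the gap between the groups was under 0.1 units in each of them.

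Several members differed between the replicate numbers in a test that allowed for the treatment. This comparison was added after the data had been seen. A limma F test between the 3 replicate numbers, fitted with the treatment over all probe sets, passed an adjusted p of 0.10 for 10 of the 112 members (8.93%), against 11.0% of all probe sets, a share slightly below the background. The 10 were single probe sets of CDH2, CDH11, PCDH9, PCDH17, PCDHB3, PCDHB6, PCDHB13, PCDHGA3, PCDHGC3 and ITGB1, and 4 of them were above the background-like level on all arrays. Replicate 3 lay above the mean of replicates 1 and 2 in both groups for CDH11, PCDH9 and PCDH17, and below it in both groups for the other 7. The F test favours probe sets whose deviations agree between the groups, so this agreement follows from the selection. The means of the replicate numbers ranged over 1.28 in PCDH9 (9.17, 9.46 and 10.45 for numbers 1, 2 and 3, adjusted p = 0.0025) and over 1.35 in PCDHGA3 (7.66, 8.04 and 6.69, adjusted p = 0.0021). In CDH2 they were 9.86, 9.72 and 9.01 with probe set 203441_s_at (adjusted p = 0.0154), whereas they were 11.44, 11.75 and 11.92 with 203440_at (adjusted p = 0.126). The ITGB1 probe set among the 10, 216178_x_at, was at background-like levels, and the one above background, 211945_s_at, did not pass (adjusted p = 0.819).

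Replicate 3 also had the highest beta-actin 3' minus 5' difference of each group, a sign of RNA quality, with 0.885 in Bf 140 nM and 2.21 in DMSO 0.6%. Whether RNA quality differed between replicate numbers was not tested, nor was its part in these results. Without DMSO 0.6% replicate 3, 10 members passed (8.93%), 9 of them the same, beside 10.3% of all probe sets. Without DMSO 0.6% replicate 1 there were 5 (4.46%, beside 5.67%), and without Bf 140 nM replicate 1 there were 6 (5.36%, beside 7.58%). Without Bf 140 nM replicate 3 there were 17 (15.18%, beside 19.7%), including all 10. With dim probe sets filtered out, 18 members were tested and 5 passed (27.8%), beside 15.5% of the 11107 probe sets tested.

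**Figure D4:**
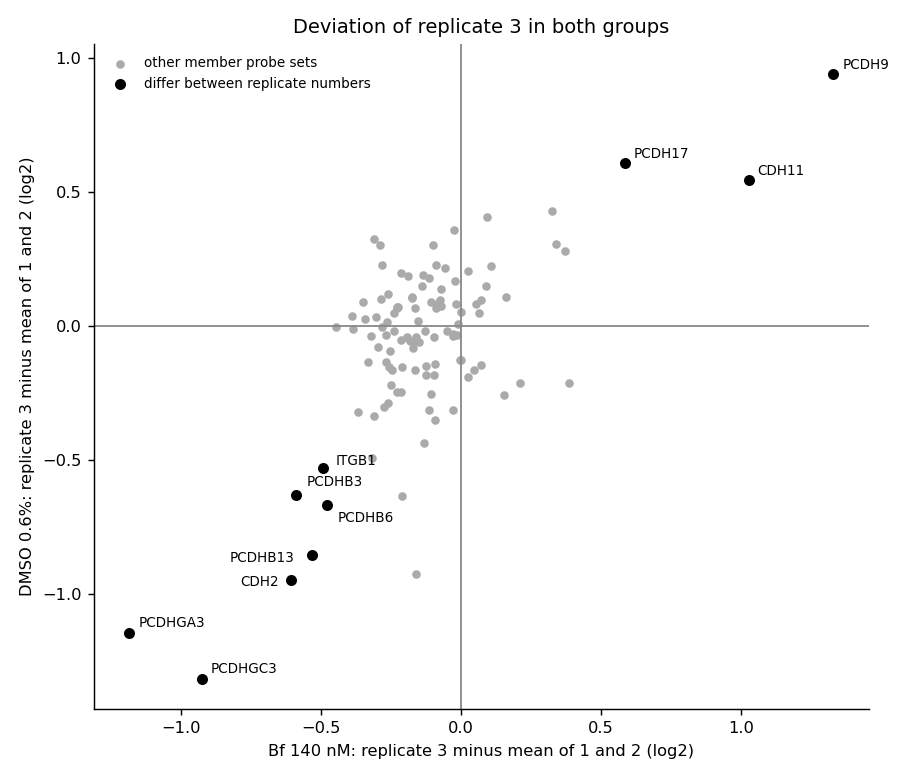
Deviation of replicate 3 from the mean of replicates 1 and 2 (log2) in Bf 140 nM (horizontal axis) and in DMSO 0.6% (vertical axis) for the 112 member probe sets; black, named points passed the F test between replicate numbers. The black points lie in the corners where both groups deviate the same way, 3 above 0 and 7 below 0. The F test favours probe sets whose deviations agree between the groups, so this placement follows from the selection.

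The proteins that act with the members were followed through 3 lists set by role. Of the catenins and other cadherin partners, 14 of 19 measured genes were above the background-like level, among them the junction proteins CTNNA1, CTNNB1 and VCL, and 0 passed the test in either direction (median difference 0.018). CTNNA2, the neural alpha-catenin, measured 8.61, 8.66 and 8.71 in Bf 140 nM, against 8.51, 8.73 and 8.40 in DMSO 0.6% (difference 0.11, SE 0.11). CTNND2, the neural delta-catenin, was above the level on no array and gave a difference of 0.13 (SE 0.10). Of the integrin adaptors, 23 of 29 were above the level, including the kindlin FERMT2, the kinases ILK and PTK2 and the talin TLN2, and 0 passed (median 0.029). CD47, an integrin-associated membrane protein, measured 10.40, 10.33 and 10.52 in Bf 140 nM, against 10.16, 10.47 and 10.17 in DMSO 0.6%, with a difference of 0.15 (SE 0.12). PARVA, or alpha-parvin, which links ILK to actin, was at background-like levels and gave -0.23 (SE 0.12). When all probe sets of PARVA entered by their median, the difference was -0.048.

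Of the extracellular ligands, 12 of 34 were above the level, among them the laminin chains LAMB1, LAMC1 and LAMA5, the collagen IV chains COL4A1 and COL4A2, and fibronectin, FN1. None passed the test by limma at an adjusted p of 0.10 or, without a block, at an unadjusted p of 0.05 (0 genes in each case), and the median difference was -0.013. COL1A1, the alpha 1 chain of collagen I, measured 8.47, 8.56 and 8.61 in Bf 140 nM, against 9.02, 8.56 and 8.83 in DMSO 0.6%. The difference of this probe set was -0.26 (SE 0.13, 95% interval -0.57 to 0.06). It was -0.044 when all probe sets of COL1A1 entered by their median. L1CAM, a neural adhesion molecule that integrins can bind, is named after its values were seen. It measured 9.62, 10.04 and 10.46 in Bf 140 nM, against 9.39, 9.78 and 10.18 in DMSO 0.6%. Each Bf 140 nM array lay above the DMSO 0.6% array of its number, by 0.23, 0.26 and 0.27, while the groups overlapped. The difference was 0.26, with an SE of 0.26 without a block and of 0.11 with the replicate block, and it did not pass in either fit (limma adjusted p = 0.99999 in both, unadjusted p = 0.357 without and 0.042 with the block). EDIL3, a secreted ligand of alpha V integrins at background-like levels, averaged 6.79 ± 0.07 in Bf 140 nM and 6.96 ± 0.05 in DMSO 0.6% (SD, n = 3 each). The groups did not overlap in 2 of the 34 genes of this list, beside the 2.66% of all probe sets given above. EDIL3 was the lower in Bf 140 nM. The other, LAMA1, named after its values were seen and above the level on no array, was higher (difference 0.15, SE 0.09).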

How the data were processed

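SH-SY5Y cells were profiled on 6 Affymetrix oligonucleotide arrays, 3 per group. The authors normalised the intensities by variance stabilization (justvsn, R version 2.5.0), so the deposited values are on a generalised log2 scale. The base was taken from the highest value, 15.2, which exceeds what natural logarithms of a 16-bit scan can reach (11.1). How probe values became probe set values was not given in the sources used here. SAM at an FDR of about 10%, after a filter on detection calls, was the authors' test. The 1-h and 24-h arrays were not used here.

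The table held 22277 probe sets, of which 62 controls were left out, and the other 22215 were all tested. Names came from the platform annotation of 2016: 19064 probe sets had 1 symbol, 1043 several and 2108 none. All 112 member probe sets matched RefSeq by Entrez identifier, and 11 probe sets that list a member symbol among several were left out of the members. No coordinates are given for probe sets, because the values name no genome build. Only the RefSeq promoters carry coordinates.

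Differences were fitted with limma (version 3.58.1, R version 4.3.3; lmFit and eBayes), without a block and two-sided, p-values were adjusted by Benjamini-Hochberg over all 22215 probe sets with a threshold of 0.10, and intervals are at 95%. The authors describe independent biological replicates, with separate flasks for each treatment. Replicate numbers pair the arrays: deviations of same-numbered arrays from their group means correlated at 0.60, 0.23 and 0.57, above the minimum of 0.1. The members, lists, gene choices and alternatives were set with earlier results of these data known, and the F test between replicate numbers was added after these values had been seen. Genes named are those above the background-like level on all arrays, the extremes of the difference, the probe sets nearest that level, cadherins and integrins that mark cell types, and 2 genes per partner list with the lowest p. Where a gene has several probe sets, the one with the highest mean stands for it unless another is named. The fits were tested on simulated data. Arrays carry no read depth, and their number limits the precision. Alternatives were other thresholds, normalisations, priors and filters, the replicate block, the beta-actin 3' minus 5' difference as a covariate, and leaving out each array.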

Additional observations from a re-analysis of the deposited data

How the results depend on the processing

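No member, no probe set of the array and no gene of the partner lists passed the adjusted p of 0.10 under any alternative run (0 each). That covers thresholds of 0.05 and 0.20, the replicate block (0 members), the beta-actin covariate, another prior, the filter on low values, quantile normalisation, median centring and leaving out each array. The single-gene differences were refitted 301 times over 24 genes, and 34 of these fits changed sign.

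With the mean over the 6 arrays in place of every array, 21 member probe sets exceeded the background-like level, and leaving out an array gave 13 to 15. Groups did not overlap in 3 of 112 members after quantile normalisation, beside 3.58% of all probe sets, so that the members' share was then below the background, and above it in the main setting. It was 7 to 23 when an array was left out, where fewer arrays make separation easier: 9, 23 and 17 without Bf 140 nM replicates 1, 2 and 3 (beside 5.76%, 17.6% and 10.4% of all probe sets), and 7, 12 and 13 without DMSO 0.6% replicates 1, 2 and 3 (beside 7.35%, 10.3% and 8.74%). Members that differed between replicate numbers were 17 at a threshold of 0.20 (15.18%, beside 17.9% of all probe sets), 21 with an intensity trend (18.8%, beside 16.2%, all 10 kept), 5 of only 18 tested with the filter on low values (27.8%, beside 15.5%) and 5 to 17 when an array was left out. The members' share was thus above that of all probe sets with the trend and the filter, and below it in the main setting. Over all probe sets the corresponding counts were 1512 at 0.05, 3977 at 0.20, 3851 after quantile normalisation and 1259 to 4381 when an array was left out (1683 and 4381 without Bf 140 nM replicates 1 and 3, and 1259, 3849 and 2294 without DMSO 0.6% replicates 1, 2 and 3).

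The differences that turned sign were smaller than their SE. With the beta-actin covariate ITGAE gave 0.046. When all probe sets of a gene entered by their median, CDH2 gave 0.049, ITGB3 0.068 and ITGA2B -0.024. Quantile normalisation gave -0.049 for CDH11, -0.0067 for PCDH9 and -0.0075 for ITGA2. Median centring gave -0.025 for CDH11, -0.0046 for ITGA2 and -0.0017 for ITGA2B. When an array was left out, the differences ran from -0.140 to 0.077 for ITGAE, -0.230 to 0.031 for CDH2, -0.142 to 0.078 for ITGAV, -0.335 to 0.222 for CDH11, -0.138 to 0.051 for ITGB5, -0.379 to 0.377 for PCDH9, -0.042 to 0.355 for PCDH17, -0.063 to 0.096 for ITGA2, -0.125 to 0.023 for ITGB7, -0.022 to 0.215 for CDH1 and -0.065 to 0.095 for ITGA2B. The causes were not tested.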

Other observations

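Probe sets that list several protocadherin symbols were left out of the members, because their signal cannot be given to a single gene. Of the 8 shown here, 1 was above the background-like level on all 6 arrays. It lists 15 symbols of the protocadherin alpha cluster and measured 9.26, 9.45 and 9.87 in Bf 140 nM replicates 1, 2 and 3, against 9.12, 9.58 and 9.67 in DMSO 0.6%. The difference was 0.07, and replicate 3 was the highest array in each group (limma F test between replicate numbers, adjusted p = 0.0773). The 4 alpha cluster probe sets with a single symbol, those of PCDHA2, PCDHA5, PCDHA9 and PCDHA10, were above the level on no array.

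A probe set with 7 symbols of the gamma cluster was above the level on 4 arrays. It measured 7.87, 8.54 and 7.20 in Bf 140 nM, against 8.15, 8.37 and 6.84 in DMSO 0.6%, with replicate 3 the lowest array in each group (adjusted p = 0.0025). The probe set of 15 alpha symbols and that of 7 gamma symbols thus deviated in opposite directions in replicate 3. The other 6 such probe sets, of PCDHA, PCDHG and ITGB6 symbols, were above the level on no array.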
